A study of Mus musculus with 6 samples.

Results

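The genes of the T cell receptor complex and of its first signalling steps were examined in aortas of vitamin E-treated ApoE-/- mice (VitE ApoE-/-), untreated ApoE-/- mice and B6 mice. The 9 genes were Cd3d, Cd3e, Cd3g, Cd247, Lck, Zap70, Lat, Cd2 and Cd5, and every probe set was taken to which the annotation of the array gives one of these symbols. This yielded 13 of the 45101 probe sets of the array, and they stood for 8 of the 9 genes. No probe set carried the symbol Lck in the annotation used here, so that the kinase Lck was not analysed here.

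All mice had a C57BL/6J background, were on the same type of rodent chow and were 32 to 34 weeks old. The vitamin E-treated mice lacked the Apoe gene and had received 2000 IU of tocopherol acetate per kg of diet for 7 months. The untreated ApoE-/- mice lacked Apoe and received no vitamin E, and the B6 controls had an intact Apoe gene and received no vitamin E either. Loss of Apoe makes these mice hypercholesterolemic and prone to atherosclerotic plaques, and the comparisons ask how untreated disease and disease under an antioxidant differ from a healthy vessel and from each other. Each group had 2 arrays, and each array held pooled RNA of 3 aortas, which had been cleaned of fat but otherwise comprised the whole vessel wall with whatever cells it contained.

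The T cell receptor consists of a pair of antigen-binding chains that carry almost no signalling sequence of their own. They depend on the CD3 gamma, delta and epsilon chains and on the zeta chain, encoded by Cd247, whose cytoplasmic tails are phosphorylated by the kinase Lck. The kinase ZAP-70 then docks on these tails and phosphorylates the membrane adaptor LAT, on which the downstream enzymes assemble. CD2 is an adhesion receptor that assists this contact, and CD5 is a receptor that dampens it. In atherosclerosis, T cells are found in the plaque, in the adventitia and in lymph nodes and other lymphoid tissue next to the vessel, and developing T cells in the thymus express the same complex.

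The regions just upstream of the genes were read because 3 members lie side by side. Cd3g and Cd3d are transcribed away from each other from starts that are 1355 bases apart, and the start of Cd3e lies 27825 bases from that of Cd3d. The 250 bases before the transcription start were taken from RefSeq (assembly GRCm38.p6, 5′ to 3′ on the strand of the gene) and matched 7 of the 8 measured genes, all except Cd2. They are shown for the 4 signalling chains of the receptor and for Lat, the members with the largest differences between VitE ApoE-/- and B6 aortas. Capitals mark the letters AGGAAG, a form of the core bound by ETS family factors, or their reverse complement.
Cd3d, chr9:44981536-44981785, plus strand: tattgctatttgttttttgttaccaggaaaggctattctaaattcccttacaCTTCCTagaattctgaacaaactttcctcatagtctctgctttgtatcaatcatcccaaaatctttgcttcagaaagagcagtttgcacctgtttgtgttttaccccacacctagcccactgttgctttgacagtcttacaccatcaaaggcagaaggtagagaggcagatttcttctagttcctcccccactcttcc
Cd3g, chr9:44980432-44980681, minus strand: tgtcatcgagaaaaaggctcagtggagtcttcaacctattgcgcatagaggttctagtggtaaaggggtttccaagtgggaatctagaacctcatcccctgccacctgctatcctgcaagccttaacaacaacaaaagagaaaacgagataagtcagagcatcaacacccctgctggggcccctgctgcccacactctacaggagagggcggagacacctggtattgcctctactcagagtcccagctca
Cd3e, chr9:45009612-45009861, minus strand: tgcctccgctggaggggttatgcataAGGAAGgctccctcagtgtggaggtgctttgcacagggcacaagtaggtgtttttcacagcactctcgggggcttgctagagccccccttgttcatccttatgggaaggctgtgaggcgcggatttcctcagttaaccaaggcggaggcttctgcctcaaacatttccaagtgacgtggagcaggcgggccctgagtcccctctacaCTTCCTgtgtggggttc
Cd247, chr1:165788431-165788680, plus strand: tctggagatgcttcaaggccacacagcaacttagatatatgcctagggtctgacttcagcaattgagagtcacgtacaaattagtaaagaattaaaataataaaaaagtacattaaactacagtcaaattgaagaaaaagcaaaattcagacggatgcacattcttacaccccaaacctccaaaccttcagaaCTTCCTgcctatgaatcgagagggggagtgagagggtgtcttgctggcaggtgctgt
Lat, chr7:126369569-126369818, minus strand: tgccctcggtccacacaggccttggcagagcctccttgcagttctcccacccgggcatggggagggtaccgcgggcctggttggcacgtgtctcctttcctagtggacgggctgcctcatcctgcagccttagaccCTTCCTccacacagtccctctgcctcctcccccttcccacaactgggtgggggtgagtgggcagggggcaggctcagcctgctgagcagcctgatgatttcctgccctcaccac
The ETS letters occurred in 7 of the 9 upstream windows of the 7 genes (Zap70 has 3 windows), and in 29.5% of all 32851 windows of this length. They were present in the windows of Cd3d, Cd3e, Cd247 and Lat and not in that of Cd3g. Other motifs were searched in the same way, on both strands. The TATA box letters, TATAAA, were in 0 of the 9 windows and in 12.4% of all windows. A form of the E-box, searched as CAGNTG and bound by helix-loop-helix factors, was in 7 of the 9 and in 44.8% of all windows. The RUNX core, spelled TGTGGT, was in 1 of the 9 and in 14% of all windows. A TCF/LEF core, searched as CTTTGA, was in 2 of the 9 and in 13.8% of all windows. The GATA core, with the letters AGATAA, was in 1 of the 9 and in 9.99% of all windows. The motifs were counted separately and their matches may overlap. A match describes letters only, and binding was not measured.

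Signal intensities are on a linear scale on which every array was set to a target of 200 by the authors. For the tests, intensities under 20 were set to 20, the values were log2-transformed, and a limma model of the 6 arrays covered the 17909 probe sets with a group mean of at least 100. Of the 13 member probe sets, 10 passed this limit, at least 1 for each of the 8 genes, and 3 dim probe sets of Cd247 did not. Of the 10, 1 of Zap70 (1440178_x_at) had a B6 mean under 100 and passed only through the ApoE-/- groups. Calls were made, with their direction, where the adjusted p was under 0.05 (limma, Benjamini-Hochberg over all 17909). An exact permutation test of 2 against 2 arrays cannot give a two-sided p under 0.333 and was therefore not used. In these bulk samples, fewer cells of a type and less RNA per cell cannot be told apart.

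The mean signal intensity of the arrays was between 305 and 319, and Apoe, the disrupted gene, had signal intensities of 40.5 and 45.3 in VitE ApoE-/- aortas, 93.2 and 57.4 in untreated ApoE-/- aortas and 5209 and 5432 in B6 aortas. The ratio of 3′ to 5′ signal of Gapdh, a sign of RNA integrity, was 1.15 and 1.24 in VitE ApoE-/- aortas, 1.03 and 1.06 in untreated ApoE-/- aortas and 1.35 and 1.34 in B6 aortas. The same ratio of actin was 1.64 and 1.64 in VitE ApoE-/- aortas, 1.78 and 1.88 in untreated ApoE-/- aortas and 2.01 and 2.06 in B6 aortas, in separate steps and lowest in the group where Cd3d, Cd3g and Lat were highest. The poly-A control transcripts, which are added to the RNA before labelling, had 0.302 to 0.453 times the B6 signal in VitE and 0.243 to 0.382 times the B6 signal in untreated ApoE-/- aortas. The part of these differences in the results was not tested. The labels of the untreated ApoE-/- and B6 arrays describe a study with a captopril group, while those of the vitamin E arrays describe one with a vitamin E group. Vitamin E treatment and any difference in handling between these sets of arrays cannot be told apart.

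Most member genes had their highest signal in VitE ApoE-/- aortas, a middle signal in untreated ApoE-/- aortas and the lowest signal in B6 aortas. This order, with no overlap between neighbouring groups, was found for 7 of the 10 tested member probe sets, namely those of Cd3d, Cd3g, Cd247, Lat, Cd2 and Cd5 and 1 of Zap70, and for 9.47% of all probe sets tested. In VitE relative to untreated ApoE-/- aortas, 4 of the 10 member probe sets were called higher (Cd3d, Cd3g, Lat and Cd2), against 8.52% of all probe sets. In untreated ApoE-/- relative to B6 aortas, 6 of 10 were called higher (Cd3d, Cd3e, Cd3g, Cd247, Lat and 1 of Zap70), against 21.7% of all. In VitE ApoE-/- relative to B6 aortas, 9 of 10 were called higher, against 21.9% of all, and the exception was a second probe set of Zap70. The 9, and the 7 with the order above, include Zap70 1440178_x_at, which passed the limit on signal only through the ApoE-/- groups. Limma called 0 of the 10 lower in each comparison, against 6.99%, 19.1% and 19.2% of all probe sets, and at an unadjusted p under 0.05 the numbers lower were 0, 0 and 1. That probe set, Zap70 1439749_at, was called lower in VitE ApoE-/- than in B6 aortas under other scalings. The 3 comparisons share arrays, and they are not independent of one another.

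**Figure D1:**
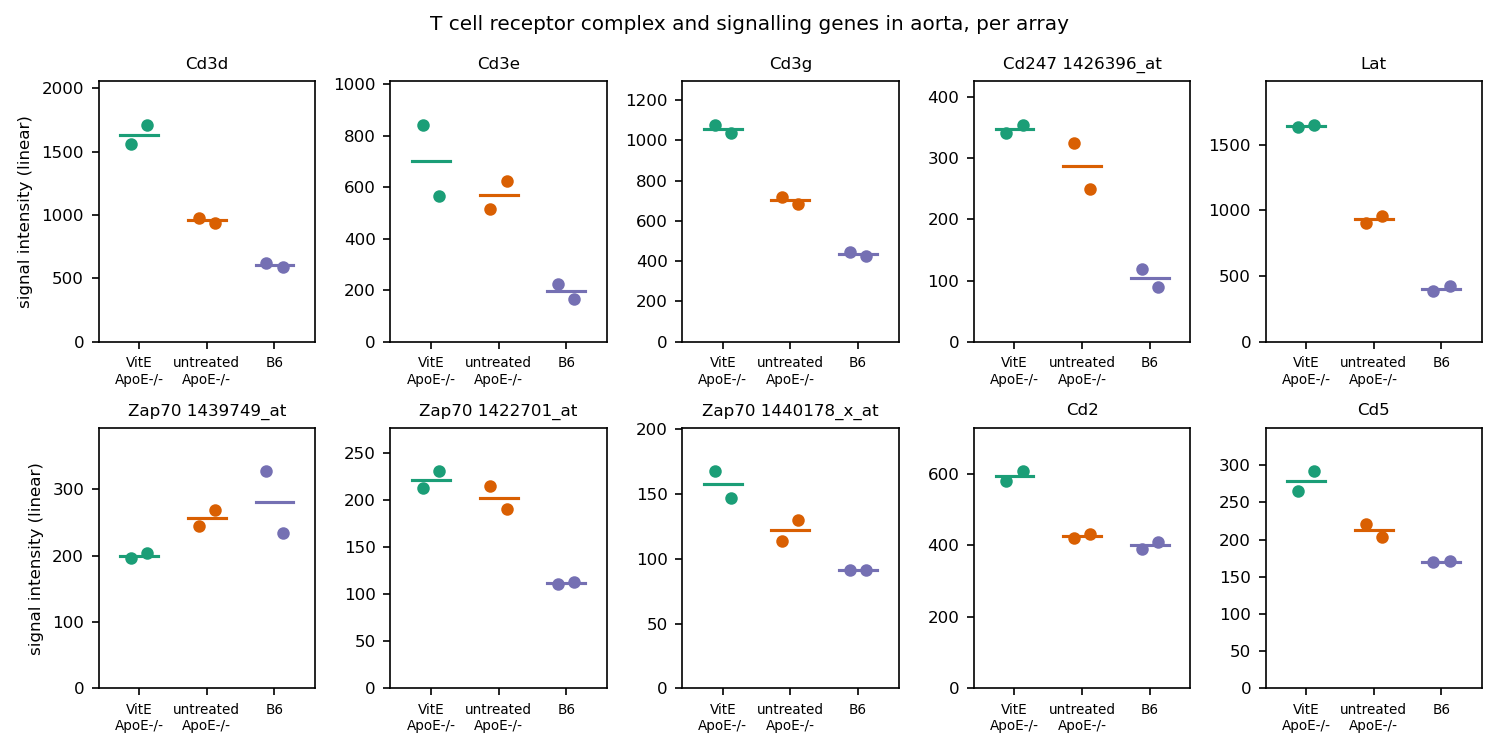
Signal intensity (linear scale, y axis from 0) of the 10 tested member probe sets on each array of VitE ApoE-/-, untreated ApoE-/- and B6 aortas. Points are arrays and bars are means of 2 arrays; the 3 groups form separate steps for Cd3d, Cd3g and Lat, with Lat at 1637 and 1651 in VitE ApoE-/-, 908 and 960 in untreated ApoE-/- and 386 and 423 in B6 aortas.

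Cd3d, which encodes the CD3 delta chain, had signal intensities of 1559 and 1712 in VitE ApoE-/- aortas, 981 and 935 in untreated ApoE-/- aortas and 620 and 593 in B6 aortas. All 3 groups were separate, and the arrays within a group lay close together. The signal was 1.71-fold higher in VitE than in untreated ApoE-/- aortas (log2 fold change 0.77 ± 0.07, SE, limma adjusted p = 0.000859). It was 1.58-fold higher in untreated ApoE-/- than in B6 (log2 change 0.66 ± 0.07, adjusted p = 0.000452). Between VitE ApoE-/- and B6 aortas the difference was 2.69-fold.

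Cd3g, the gene of the CD3 gamma chain next to Cd3d, behaved much like its neighbour. Its signal intensity was 1076 and 1035 in VitE ApoE-/- aortas, 719.8 and 683 in untreated ApoE-/- aortas and 444 and 425 in B6 aortas, again in 3 separate steps. The step between VitE and untreated ApoE-/- aortas was 1.51-fold (log2 fold change 0.59 ± 0.07, adjusted p = 0.00226), and that between untreated ApoE-/- and B6 aortas was 1.61-fold (log2 fold change 0.69 ± 0.07, adjusted p = 0.000298).

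Cd3e, the gene of the CD3 epsilon chain, which pairs with both other CD3 chains, had signal intensities of 842 and 565 in VitE ApoE-/- aortas, 517 and 626 in untreated ApoE-/- aortas and 225 and 168 in B6 aortas. Both ApoE-/- groups lay above B6, but they overlapped with each other. Cd3e was 2.93-fold higher in untreated ApoE-/- than in B6 (log2 change 1.55 ± 0.21, adjusted p = 0.00121) and 3.55-fold higher in VitE ApoE-/- aortas than in B6 (log2 change 1.83 ± 0.21, adjusted p = 0.000627). Between VitE and untreated ApoE-/- aortas the log2 difference was 0.28 with a 95% confidence interval from −0.22 to 0.77 (adjusted p = 0.409). This difference rested on 1 array, since it was −0.01 without the first vitamin E array.

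Cd247, the gene of the zeta chain, was measured by 4 probe sets, of which 1 passed the limit on signal. It had 341 and 354 in VitE ApoE-/- aortas, 324 and 249.7 in untreated ApoE-/- aortas and 119 and 90.2 in B6 aortas. The signal was 2.75-fold higher in untreated ApoE-/- than in B6 (log2 change 1.46 ± 0.17, adjusted p = 0.000649) and 3.36-fold higher in VitE ApoE-/- than in B6 aortas (adjusted p = 0.000314). VitE and untreated ApoE-/- aortas did not overlap, but their difference did not pass the test (log2 fold change 0.29, 95% confidence interval −0.12 to 0.69, adjusted p = 0.294). A dimmer probe set of Cd247 (1452539_a_at), which was not tested, had 74.3 and 95.03 in VitE ApoE-/- aortas, 49.4 and 49.9 in untreated ApoE-/- aortas and 27.4 and 23.9 in B6 aortas, in the same order of groups. The third, 1420716_at, was between 13.7 and 34.5 on all arrays, and 1426079_at stayed under 20 on every array.

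The adaptor gene Lat had the largest differences of the members between VitE and untreated ApoE-/- aortas and between VitE ApoE-/- and B6 aortas. Its signal intensity was 1637 and 1651 in VitE ApoE-/- aortas, 908 and 960 in untreated ApoE-/- aortas and 386 and 423 in B6 aortas. The groups were far apart relative to the spread within them. Lat was 1.76-fold higher in VitE than in untreated ApoE-/- aortas (log2 fold change 0.82 ± 0.07, adjusted p = 0.000648) and 2.31-fold higher in untreated ApoE-/- than in B6 (log2 change 1.21 ± 0.07, adjusted p = 3.09e-05). Over both steps it was 4.07-fold higher in VitE ApoE-/- aortas than in B6 (log2 change 2.02 ± 0.07, adjusted p = 3.35e-06).

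Zap70, the gene of the kinase that docks on the zeta chain, was measured by 3 probe sets that disagreed. The probe set annotated with a RefSeq transcript (1422701_at) had 213 and 231 in VitE ApoE-/- aortas, 215 and 190.3 in untreated ApoE-/- aortas and 111 and 113 in B6 aortas. Both ApoE-/- groups exceeded B6 and overlapped with each other. Its signal was 1.81-fold higher in untreated ApoE-/- than in B6 (log2 change 0.85 ± 0.12, adjusted p = 0.00158), whereas VitE and untreated ApoE-/- aortas differed by 0.13 (95% confidence interval −0.16 to 0.42, adjusted p = 0.501).

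The second Zap70 probe set, 1440178_x_at, had 168 and 147 in VitE ApoE-/- aortas, 114 and 130.3 in untreated ApoE-/- aortas and 91.5 and 91.6 in B6 aortas. It was called only between VitE ApoE-/- and B6 aortas, at 1.72-fold (log2 fold change 0.78 ± 0.15), and had passed the limit on signal only through the ApoE-/- groups. The probe set 1439749_at, which has no RefSeq transcript in the annotation, ran in the opposite order. Its signal was 196 and 205 in VitE ApoE-/- aortas, 244 and 269 in untreated ApoE-/- aortas and 327 and 234 in B6 aortas. It was not called in any comparison (log2 fold changes −0.36, −0.11 and −0.47, adjusted p = 0.176, 0.615 and 0.0519 from limma, for VitE against untreated ApoE-/-, untreated ApoE-/- against B6 and VitE ApoE-/- against B6 aortas). Between VitE ApoE-/- and B6 aortas it was called lower with quantile normalization (−0.53, adjusted p = 0.0327), with median centring (−0.62, adjusted p = 0.0143), with 1 probe set per gene (adjusted p = 0.047) and without the second B6 array (−0.71, adjusted p = 0.0172). Which part of the transcript these probe sets detect was not examined, and the direction given for Zap70 holds for the first 2 probe sets.

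The remaining members are surface receptors that tune the T cell receptor. Cd2 had signal intensities of 580.5 and 607 in VitE ApoE-/- aortas, 421 and 432 in untreated ApoE-/- aortas and 390.3 and 410 in B6 aortas. VitE aortas stood apart, while untreated ApoE-/- and B6 aortas were close to each other. Cd2 was 1.39-fold higher in VitE than in untreated ApoE-/- aortas (log2 fold change 0.48 ± 0.08, adjusted p = 0.00745), but this call was lost when either untreated array was left out (adjusted p = 0.062 and 0.052). Untreated ApoE-/- and B6 aortas differed by 0.09 on the log2 scale (95% confidence interval −0.09 to 0.27, adjusted p = 0.365).

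Cd5 had signal intensities of 265 and 292 in VitE ApoE-/- aortas, 221 and 204 in untreated ApoE-/- aortas and 170.0 and 171 in B6 aortas. The 3 groups did not overlap, yet each step lay just beyond the threshold. The log2 fold change was 0.39 ± 0.11 between VitE and untreated ApoE-/- aortas (adjusted p = 0.0522) and 0.32 ± 0.11 between untreated ApoE-/- and B6 aortas (adjusted p = 0.0534). Over both steps Cd5 was 1.63-fold higher in VitE ApoE-/- than in B6 aortas (adjusted p = 0.00224).

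**Figure D2:**
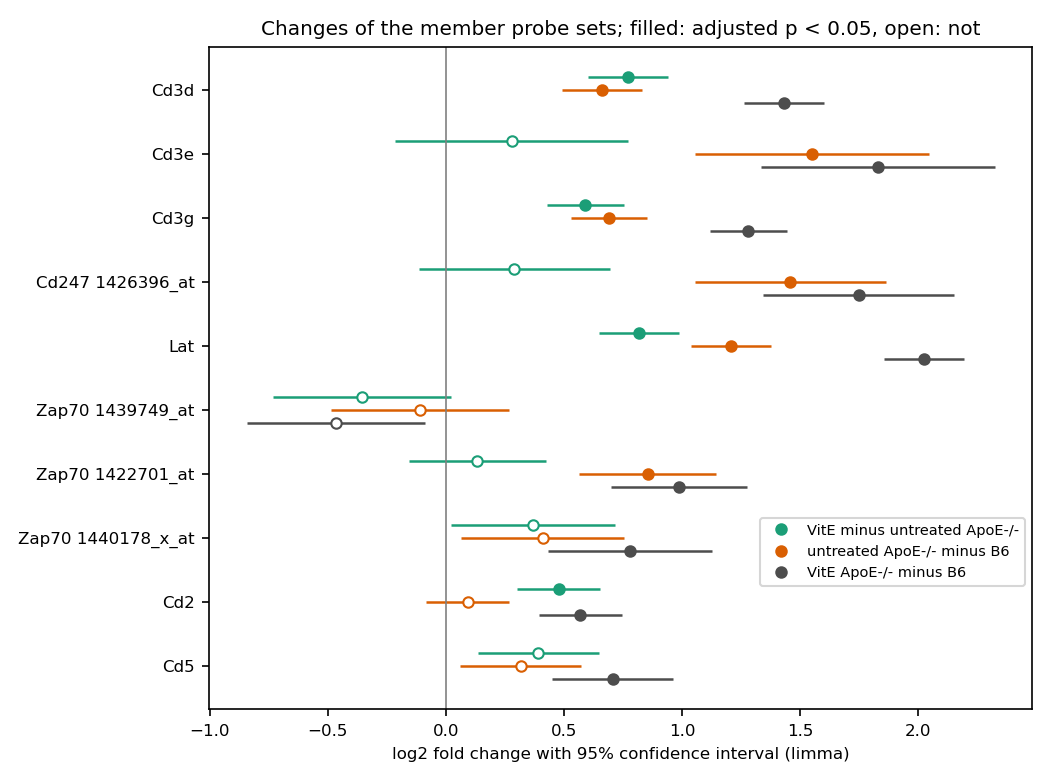
Log2 fold changes (x axis) of the 10 tested member probe sets with their 95% confidence intervals from limma, for VitE minus untreated ApoE-/-, untreated ApoE-/- minus B6 and VitE ApoE-/- minus B6 aortas. Filled points passed the adjusted p threshold of 0.05; Lat reaches 2.02 between VitE ApoE-/- and B6 aortas, and Zap70 1439749_at is the only probe set with all 3 points below 0.

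Thus the calls at the 2 steps were not the same for all members. For Cd3d and Cd3g the steps between VitE and untreated ApoE-/- aortas and between untreated ApoE-/- and B6 aortas were of like size (0.77 and 0.66, and 0.59 and 0.69 on the log2 scale). For Cd3e, Cd247 and Zap70 (1422701_at) only the step between untreated ApoE-/- and B6 aortas passed the test, and for Cd2 only that between VitE and untreated ApoE-/- aortas. Whether the steps of one gene differ from those of another was not tested. Cd3d, Cd3g and Lat, 3 of 10 probe sets, were called higher in both steps, which held for 1.65% of all probe sets.

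The partners of the complex were followed in lists of receptors and signalling genes. The antigen receptor chains themselves were hardly covered. Of 15 symbols only Tcra and Ptcra had a probe set named by the annotation, and neither was bright enough to be tested. Tcra was under 20 on every array. Ptcra, the gene of the pre-T cell receptor alpha chain used by immature thymocytes, had 75.3 and 83.1 in VitE ApoE-/- aortas, 48.6 and 46.0 in untreated ApoE-/- aortas and 20.4 and 17.7 in B6 aortas.

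Of the coreceptors and accessory receptors, 13 of 16 were tested, 4 of which, Cd4, Cd27, Cd96 and Sh2d1a, had a B6 mean under 100 and passed only through the ApoE-/- groups. In VitE relative to untreated ApoE-/- aortas 6 rose (8.52% of all probe sets did) and 7 did not pass the test, with a median log2 change of 0.46 against 0.0035 over all probe sets. In untreated ApoE-/- relative to B6 aortas 9 rose (21.7% of all) and 4 did not pass, with a median of 0.99 against 0.03. Among the 9 were Cd4, Cd27 and Sh2d1a, which entered the test only through the groups where they are bright. Thy1, a surface protein of T cells and also of fibroblasts and neurons, had 3892 and 4217 in VitE ApoE-/- aortas, 2539 and 2840 in untreated ApoE-/- aortas and 1371 and 1329 in B6 aortas. Ptprc, the CD45 phosphatase of all leukocytes, had 4030 and 4198 in VitE ApoE-/- aortas, against 3483 and 3518 in untreated ApoE-/- aortas and 2819 and 2956 in B6 aortas. Both rose in both steps (adjusted p = 0.00332 and 9.6e-05 for Thy1, 0.0455 and 0.0106 for Ptprc).

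Cd4, the coreceptor of helper T cells, had 597 and 665 in VitE ApoE-/- aortas, 332 and 455 in untreated ApoE-/- aortas and 18.5 and 79.1 in B6 aortas. Untreated ApoE-/- and B6 aortas differed by 3.29 on the log2 scale, with the first B6 array raised to 20, and the spread of its B6 arrays was wide. Because Cd4 passed the limit on signal only through the ApoE-/- groups, its p against B6 is not given. Sh2d1a, the gene of the adaptor SAP, had 389 and 343 in VitE ApoE-/- aortas, 256 and 252 in untreated ApoE-/- aortas and 65.3 and 50.6 in B6 aortas (log2 fold change 2.14 for untreated ApoE-/- against B6). Cd8a and Cd8b1, the 2 chains of the coreceptor of cytotoxic T cells, were singled out after their values were seen. Cd8a had 1143 and 1205 in VitE ApoE-/- aortas, 725 and 675 in untreated ApoE-/- aortas and 209 and 205 in B6 aortas, and Cd8b1 had 1132 and 1181 in VitE ApoE-/-, 848 and 868 in untreated ApoE-/- and 331 and 334 in B6 aortas. Both genes were called higher at each step, with log2 fold changes of 0.75 and 0.43 between VitE and untreated ApoE-/- aortas (adjusted p = 0.00112 and 0.00632).

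Of the proximal kinases, phosphatases and adaptors, 20 of 25 were tested, and 6 of them, Themis and Trat1 included, passed only through the ApoE-/- groups. In VitE relative to untreated ApoE-/- aortas 7 rose (8.52% of all probe sets) and 13 did not pass the test (median log2 fold change 0.26). In untreated ApoE-/- relative to B6 aortas 14 rose (21.7% of all), 1 fell (19.1% of all) and 5 did not pass (median 0.69). Among the 14 were Sit1, Trat1, Sh2d2a, Themis and Vav1, which passed the limit only through the ApoE-/- groups. Themis, a signalling protein required for thymocyte selection, had 477 and 673 in VitE ApoE-/- aortas, 363 and 391 in untreated ApoE-/- aortas and 83.7 and 66.4 in B6 aortas (log2 fold change 2.34 for untreated ApoE-/- against B6). Trat1, a transmembrane adaptor of the receptor complex, had 126 and 82.8 in VitE ApoE-/-, 91.0 and 113 in untreated ApoE-/- and 24.2 and 17.9 in B6 aortas (2.20 for untreated ApoE-/- against B6).

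Ptpn6, the phosphatase SHP-1 of many blood cells, had 1019 and 1028 in VitE ApoE-/- aortas, 1058 and 1037 in untreated ApoE-/- aortas and 529 and 578 in B6 aortas. It rose in untreated ApoE-/- relative to B6 aortas (log2 fold change 0.92, adjusted p = 8.03e-05) and differed by −0.03 between VitE and untreated ApoE-/- aortas (adjusted p = 0.782). Ptpn2, a widely expressed phosphatase, was the only gene that fell, with 1425 and 1458 in VitE ApoE-/- aortas, 1187 and 1216 in untreated ApoE-/- aortas and 1487 and 1350 in B6 aortas (−0.24 for untreated ApoE-/- against B6, adjusted p = 0.0278). Lcp2, the gene of the adaptor SLP-76 that joins LAT to its effectors, was also chosen after its values were seen. It had 544 and 528 in VitE ApoE-/- aortas, 355 and 340.2 in untreated ApoE-/- aortas and 220.4 and 199 in B6 aortas and rose in both steps (0.62 and 0.73, adjusted p = 0.00539 and 0.000803).

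The last of these lists held signalling genes further downstream, among them enzymes and transcription factors. Of 14 tested genes, 4 rose and 10 did not pass the test in each of the first 2 comparisons, with medians of 0.26 for VitE against untreated ApoE-/- aortas and 0.10 for untreated ApoE-/- against B6 aortas. The shares called higher over all probe sets were 8.52% and 21.7%, so that the count against B6 was near the share over all. Rasgrp1, the exchange factor that activates Ras behind LAT in T cells, had 595 and 562 in VitE ApoE-/- aortas, 376 and 366 in untreated ApoE-/- aortas and 217 and 194 in B6 aortas and rose in both steps (log2 fold changes 0.64 and 0.85, adjusted p = 0.00517 and 0.000429). Dgkz, a diacylglycerol kinase that limits Ras activation, had 1992 and 2059 in VitE ApoE-/-, 1518 and 1405 in untreated ApoE-/- and 1236 and 1206 in B6 aortas, with log2 fold changes of 0.47 and 0.26 (adjusted p = 0.0043 and 0.0166). Nfatc3, a calcium-controlled transcription factor, rose in untreated ApoE-/- relative to B6 aortas (0.48, adjusted p = 0.0034) and had a difference of 0.25 between VitE and untreated ApoE-/- aortas (adjusted p = 0.0854). Over these lists together, 17, 27 and 37 of the 47 tested genes were called higher in VitE against untreated ApoE-/-, untreated ApoE-/- against B6 and VitE ApoE-/- against B6 aortas, against 8.52%, 21.7% and 21.9% of all probe sets. Of the 47, 11 passed only through the ApoE-/- groups where they are bright, and the counts against B6 include genes selected in this way.

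**Figure D3:**
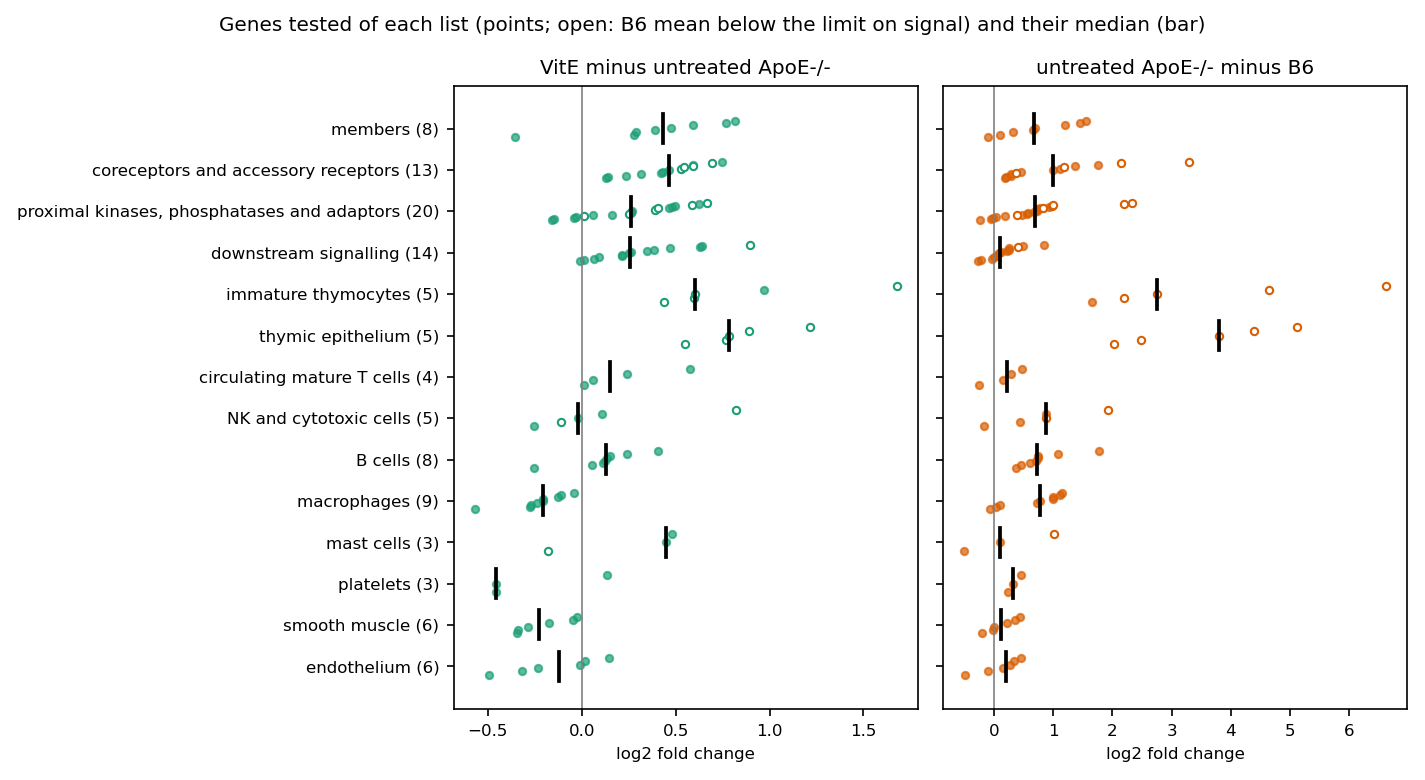
Log2 fold changes (x axis) of the tested genes of the members, the signalling lists and the cell type marker lists, with VitE minus untreated ApoE-/- aortas on the left and untreated ApoE-/- minus B6 aortas on the right. Points are genes, open where the B6 mean was under 100, black bars are medians and the number of genes is in parentheses; the members have medians of 0.43 on the left and 0.67 on the right, and all 5 points of thymic epithelium and 4 of 5 of immature thymocytes are open.

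The genes whose pattern over the 6 arrays came closest to the mean of the members were Racgap1, D17H6S56E-5, Cd37, Fkbp5, Cdk6, Acin1, Gabpb1, Gpr171, Atad5 and Melk. Likeness was measured as the root mean square difference of the centred log2 values, which was between 0.047 and 0.066 for these genes. Among 10438 genes, Cd3g itself ranked 26, Cd3d 183 and Zap70, by its brightest probe set, 8683. Each member is part of the mean that it was ranked against, so that these ranks are descriptive only. Racgap1, a regulator of cell division, had 239.7 and 236 in VitE ApoE-/- aortas, 198 and 182 in untreated ApoE-/- aortas and 119 and 107 in B6 aortas. Cd37, a tetraspanin of B cells and other leukocytes, had 1091 and 1136 in VitE ApoE-/-, 893 and 903 in untreated ApoE-/- and 530 and 482 in B6 aortas. The list depended on the probe set chosen for Zap70, because only Fkbp5 remained among the first 10 when the RefSeq probe set was used.

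Other cell types that the samples could hold were followed by their markers. Markers of immature thymocytes, of which 6 of 7 had a probe set, summed to a signal intensity of 6728 and 6800 in VitE ApoE-/- aortas, 3314 and 4194 in untreated ApoE-/- aortas and 323 and 291 in B6 aortas. Those of thymic epithelium, 7 of 7, summed to 3476 and 3463 in VitE ApoE-/-, 2109 and 1984 in untreated ApoE-/- and 99.9 and 124 in B6 aortas. These sums had the same order of groups as Cd3d, Cd3g, Lat and Cd247. The order was not particular to the thymic lists. The summed markers of B cells, of NK and cytotoxic cells and of circulating mature T cells had it too. So did the sums of the coreceptor, proximal and downstream signalling lists. With signals under 20 raised to 20, VitE ApoE-/- aortas exceeded B6 at least 20.1-fold for immature thymocytes and at least 20.3-fold for thymic epithelium, and 2.49-fold for the sum of the members. Of the 5 tested genes of each list, 4 and 5 had a B6 mean under 100 and entered the test only through the ApoE-/- groups where they are bright, so that their number of calls against B6 is not given.

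Rag1, a recombinase gene of immature lymphocytes, had 2940 and 3020 in VitE ApoE-/- aortas, 1887 and 2060 in untreated ApoE-/- aortas and 10.4 and 3.14 in B6 aortas. Both B6 arrays were under 20 and were set to 20 for the test, and untreated ApoE-/- aortas were at least 98.6-fold higher. Dntt, the gene of terminal transferase, which acts at the same stage, had 1873 and 1832 in VitE ApoE-/-, 312 and 1075 in untreated ApoE-/- and 26.7 and 18.7 in B6 aortas, and the untreated arrays differed widely. Prss16, a protease gene of the thymic cortex epithelium, had 1010 and 1122 in VitE ApoE-/- aortas, 612 and 623 in untreated ApoE-/- aortas and 27.8 and 31.2 in B6 aortas. Tbata, another thymic epithelial gene, had 1133 and 914 in VitE ApoE-/-, 738 and 654 in untreated ApoE-/- and 2.46 and 4.12 in B6 aortas. The defining regulators Foxn1 and Aire, singled out after their values were seen, were dim, with 38.4 and 36.4 for Foxn1 in VitE ApoE-/- aortas, 33.8 and 23.2 in untreated ApoE-/- aortas and 5.69 and 24.7 in B6 aortas. Aire, which is switched on in the thymic medulla, had 23.2 and 26.0 in VitE ApoE-/- aortas, 18.7 and 8.01 in untreated ApoE-/- aortas and 3.73 and 5.02 in B6 aortas. The part of thymic tissue in the signal of the members was not tested.

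The markers of circulating mature T cells, Klf2, Il7r, S1pr1 and Ccr7, summed to 2097 and 2316 in VitE ApoE-/- aortas, 2037 and 1956 in untreated ApoE-/- aortas and 1834 and 1757 in B6 aortas. Limma called 0 of these 4 in VitE against untreated ApoE-/- aortas (2 at an unadjusted p under 0.05) and 1, Klf2, higher in untreated ApoE-/- against B6 aortas, where 21.7% of all probe sets were. Klf2, which keeps T cells in circulation and is also an endothelial gene, had 1177 and 1255 in VitE ApoE-/-, 1180 and 1149 in untreated ApoE-/- and 983 and 919 in B6 aortas. Il7r, the interleukin-7 receptor, differed by 0.24 at the step between VitE and untreated ApoE-/- aortas and by −0.25 at the step to B6, and S1pr1, the exit receptor of lymphocytes, by 0.58 and 0.47 (adjusted p between 0.0852 and 0.153).

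NK and cytotoxic cells share Cd247, Zap70 and Cd2 with T cells. Of their 5 tested markers, 1 rose in VitE relative to untreated ApoE-/- aortas, against 8.52% of all probe sets. Gzma and Il2rb had a B6 mean under 100 and passed only through the ApoE-/- groups, so that the number of calls against B6 is not given. Gzma, a granule protease gene, had 403 and 317 in VitE ApoE-/- aortas, 203 and 201 in untreated ApoE-/- aortas and 49.3 and 57.9 in B6 aortas. It rose in VitE relative to untreated ApoE-/- aortas (log2 fold change 0.82, adjusted p = 0.0151), and untreated ApoE-/- and B6 aortas differed by 1.92. Nkg7, a granule membrane protein gene, had 200.3 and 237 in VitE ApoE-/-, 263 and 257 in untreated ApoE-/- and 154 and 129 in B6 aortas. It rose in untreated ApoE-/- relative to B6 aortas (0.89, adjusted p = 0.0022), and Il2rb differed by 0.88 there. Ncr1, an NK cell receptor gene, was under 20 on every array; it and Il2rb were chosen after their values were seen. The list of 10 genes with a probe set summed to 1193 and 1246 in VitE ApoE-/- aortas, 1094 and 1152 in untreated ApoE-/- aortas and 726 and 698 in B6 aortas.

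B cell markers had 8281 and 8743 in VitE ApoE-/- aortas, 7823 and 7586 in untreated ApoE-/- aortas and 4823 and 4796 in B6 aortas. All 8 tested B cell genes rose in untreated ApoE-/- relative to B6 aortas (21.7% of all probe sets did), with log2 fold changes of 0.37 for Ms4a1, 0.61 for Cd79b, 1.78 for Cd79a and 1.07 for Blk, whereas limma called 0 of the 8 between VitE and untreated ApoE-/- aortas (4 at an unadjusted p under 0.05, of which 3 were higher and 1 lower). Macrophage markers summed to 14534 and 14858 in VitE ApoE-/- aortas, 16409 and 16474 in untreated ApoE-/- aortas and 10549 and 10503 in B6 aortas. Unlike the sum of the members, that of the macrophage markers was thus lower in VitE than in untreated ApoE-/- aortas, with 2 of 9 genes, C1qa and C1qc, called lower (6.99% of all probe sets were). Between untreated ApoE-/- and B6 aortas C1qb (1.11), C1qc (1.15) and Lyz2 (0.78) rose, and Csf1r differed by 0.10 (adjusted p = 0.314). The smooth muscle markers that define the vessel wall were bright on every array, with sums of 15510 and 16583 in VitE ApoE-/-, 17292 and 17895 in untreated ApoE-/- and 18372 and 18951 in B6 aortas, and endothelial markers summed to 1864 and 2064 in VitE ApoE-/-, 2191 and 2234 in untreated ApoE-/- and 2269 and 2201 in B6 aortas. Acta2 and Tagln, contractile genes, differed by −0.21 and 0.0022 between untreated ApoE-/- and B6 aortas (adjusted p = 0.0663 and 0.984), Smtn rose (0.44, adjusted p = 0.00537) and Lmod1 differed by 0.35 (adjusted p = 0.239). Of the endothelial genes Vwf fell (−0.50, adjusted p = 0.00131), Cdh5 rose (0.45, adjusted p = 0.0132) and Kdr differed by 0.15 (adjusted p = 0.411). The mast cell genes Cpa3 and Cma1 differed by −0.51 and 0.10 (adjusted p = 0.0291 and 0.61). Tpsb2, also a mast cell gene, differed by 1.01 between untreated ApoE-/- and B6 aortas. It had a B6 mean under 100 and passed only through the untreated ApoE-/- group, so that its p is not given. The platelet genes Pf4 and Itga2b differed by 0.45 and 0.32 between untreated ApoE-/- and B6 aortas (adjusted p = 0.00317 and 0.202). In VitE relative to untreated ApoE-/- aortas limma called 2 of 6 smooth muscle genes lower, Myh11 and Cnn1 (both −0.34, adjusted p = 0.0199 and 0.0386). So were 1 of 6 endothelial genes, Vwf (−0.49, adjusted p = 0.00464), and 1 of 3 platelet genes, Pf4 (−0.46, adjusted p = 0.00906), against 6.99% of all probe sets. No gene of these lists or of the mast cell list was called higher there. The part of these cell types in the signal of the members was not tested.

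**Figure D4:**
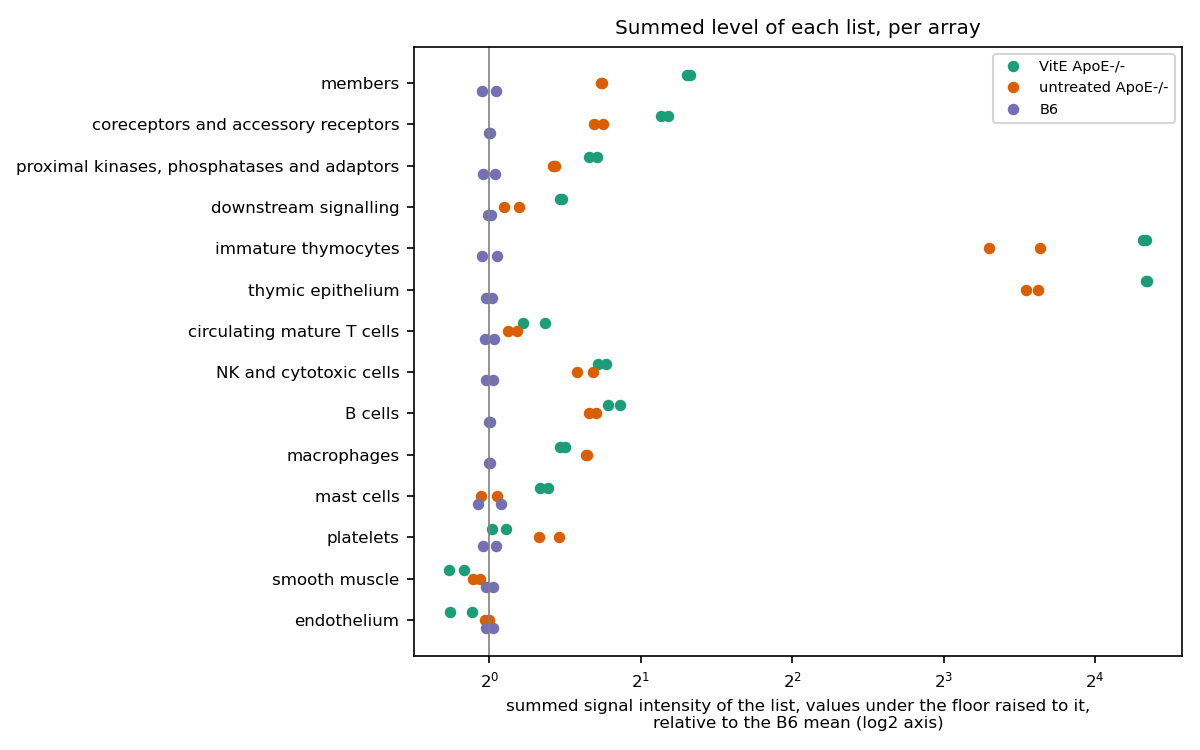
Summed signal intensity of each list on each array, relative to the mean of the B6 arrays (x axis, log2 scale, signals under 20 raised to 20), for VitE ApoE-/-, untreated ApoE-/- and B6 aortas. The members reach 2.50 and 2.47 times B6 in VitE and 1.67 and 1.68 times B6 in untreated ApoE-/- aortas, while both thymic lists lie between 9.83 and 20.3 in the ApoE-/- arrays.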

How the data were processed

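Aortic RNA was hybridised to Affymetrix MG430 2.0 arrays. The deposited signal intensities are linear values, 1 per probe set and array, which the authors computed and scaled to a target of 200 with GCOS 1.4. Detection calls played no part. Precision is limited by the 2 arrays per group.

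The members and gene lists were chosen with earlier results of these data known. Every probe set with 1 symbol was named by the array annotation, and a gene was represented by its probe set with the highest mean. Of each list, the text names the 2 brightest genes and the 2 that differed most between untreated ApoE-/- and B6, and outside the lists the 10 genes with the most similar pattern. Cd8a, Cd8b1, Lcp2, Foxn1, Aire, Ncr1, Il2rb, C1qa, Myh11 and Cnn1 were named after their values were seen. Of the 45101 probe sets, 64 controls were left out and 17909, standing for 10650 genes, were tested with limma 3.58.1 in R 4.3.3 (1 mean per group, 3 residual and 4.46 prior degrees of freedom, intensity trend). Nothing states whether the pools are independent, so that p-values measure the spread between arrays. On simulated data, in which only brighter probe sets were changed, 88 of 100 changed 2-fold were recovered for VitE against untreated ApoE-/- aortas, and 85 of 100 for untreated ApoE-/- against B6. Smaller changes were not simulated. Every member differed by less than 2-fold between VitE and untreated ApoE-/- aortas, so that this recovery does not apply to the members there. Between untreated ApoE-/- and B6 aortas it does not apply to Cd3d, Cd3g, Zap70, Cd2 and Cd5, which also differed by less than 2-fold. Alternatives covered scaling, floor, filter, moderation, array left out, replicate block, 1 probe set per gene and the methods' t-test. The alternative list of similar genes with the RefSeq probe set of Zap70 was added after the values were seen. Upstream sequences came from RefSeq, and the motifs were chosen with the member genes known.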

Additional observations from a re-analysis of the deposited data

How the results depend on the processing

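Cd3d, Cd3g and Lat were called higher in both steps under all 16 alternatives of limma, and the number of member probe sets called was 3 to 5, 6 to 7 and 9 to 10 when 1 array was left out (4, 6 and 9 with all arrays, for VitE against untreated ApoE-/-, untreated ApoE-/- against B6 and VitE ApoE-/- against B6). With 1 array left out, the log2 fold change of Cd3e between VitE and untreated ApoE-/- aortas ranged from −0.010 (without VitE array 1) to 0.57, and that of Zap70 1439749_at between untreated ApoE-/- and B6 aortas from −0.35 to 0.13 (without B6 array 1). Without the second B6 array the tenth call against B6 was Zap70 1439749_at, called lower. Cd3e lost its call between untreated ApoE-/- and B6 aortas with no filter (adjusted p = 0.0617).

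Over all probe sets, 2777, 7305 and 7368 were called in these comparisons. With 1 array left out the counts were 808 to 3517, 4337 to 8791 and 4353 to 7507. The count for VitE against untreated ApoE-/- fell to 861 and 808 without either untreated array and to 1636 and 1692 without either B6 array, and the counts against B6 fell by more than 1.5 times without either B6 array and, for untreated ApoE-/-, without either untreated array. With no filter the counts were 949, 4494 and 4464, and with only the 2 groups compared the first was 1700. The methods' t-test, at their thresholds, gave 184, 789 and 586 on log2 and 179, 790 and 588 on linear signal intensities, with 0, 1 and 3 and 0, 1 and 4 members, and after Benjamini-Hochberg 0, 2156 and 67, and 0, 2166 and 76. Its 2-fold threshold is above the difference of every member between VitE and untreated ApoE-/- aortas. Median centring moved the share of higher calls to 33.5%, 42.8% and 30.9%, against 55.0%, 53.1% and 53.3%, and the median of VitE ApoE-/- against B6 aortas by −0.16. Nothing states that arrays with the same replicate number are paired. The deviations of same-numbered arrays had correlations of 0.055, −0.098 and 0.054. With the replicate block 2185, 6887 and 6991 probe sets and 4, 6 and 9 members were called. The cause of these shifts was not tested.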
